A study of Mus musculus with 17 samples.

Results

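The 9 genes described here encode secreted factors of bone stroma that act on osteoclasts: Tnfsf11, Tnfrsf11b, Csf1, Il34, Il12a, Ccl2, Il6, Il11 and Lif. They were taken from a list of such cytokine genes, not by their values, and are 9 of 55335 genes counted in each of 17 bulk RNA-seq libraries. The libraries were made from skeletal stromal/stem cells (SSCs, Sca-1+CD51+PDGFRα+) and osteoprogenitor cells (OPCs, Sca-1-CD51+ with or without PDGFRα), both sorted as CD45-TER119-CD31- cells from collagenase-digested mouse bone after the marrow had been flushed out. The mice were WT, heterozygous (+/1013) or homozygous (1013/1013) for a knock-in allele of Cxcr4 that lacks the end of the receptor's C-terminal tail, a gain-of-function model of WHIM syndrome; the allele is present in every cell of the animal. The study used littermate females of 8 to 12 weeks unless it stated otherwise, and each library came from 3000 cells pooled from 3 mice. There were 3 libraries per genotype and cell type, except for 1013/1013 SSCs with 2, so each group mean rests on pools and p-values measure only the spread between such libraries. Reads of the truncated allele count under the same Cxcr4 gene, so its counts do not check the genotype labels. In these bulk samples, fewer cells that express a gene and less RNA per cell cannot be told apart.

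Osteoclasts are the bone-resorbing cells of the macrophage lineage. Their precursors need a survival signal through the receptor CSF1R, given by M-CSF (Csf1) or IL-34 (Il34), and a differentiation signal through RANK, given by RANK-L (Tnfsf11) on stromal and bone cells. Osteoprotegerin (Tnfrsf11b) is a secreted decoy that binds RANK-L and keeps it from RANK. IL-6, IL-11 and LIF signal through receptors that share the chain gp130 (Il6st) and can raise RANK-L in stroma, the chemokine MCP-1 (Ccl2) draws monocytes, and p35 (Il12a) is a chain of IL-12, a cytokine known to restrain osteoclast formation when paired with p40 (Il12b).

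OPC libraries held between 64099849 and 92683497 counts on genes and SSC libraries between 44217695 and 50509592. Levels are CPM, counts divided by TMM-scaled library sizes. A gene with 3 counts, taken as the limit of detection, would stand at 0.0324 to 0.0468 CPM before that scaling in OPCs and at 0.0594 to 0.0678 CPM in SSCs, which covers counting error only. The sort marker Ly6a, which encodes Sca-1, followed the labels, from 0.569 to 12.4 CPM in OPCs and from 386 to 1450 CPM in SSCs. The levels of Pdgfra and of Itgav (CD51) are not given here. Runx2, the master factor of osteoblasts and not a sort marker, ran from 55.2 to 76.3 CPM in OPCs and from 5.003 to 30.0 CPM in SSCs. The 20 macrophage and leukocyte markers summed to 10843 CPM in WT OPC replicate 3, 10503 CPM in 1013/1013 OPC replicate 2 and 3831 CPM in WT SSC replicate 3, against 57.3 to 1097 CPM in the other libraries. The 15 osteoclast markers summed to 598 to 1865 CPM in OPCs and 611 to 1043 CPM in SSCs. Several were well detected, such as Ctsk at 236 to 626 CPM in OPCs and 288 to 560 CPM in SSCs and Nfatc1 at 78.7 to 207 CPM and 31.4 to 247 CPM, whereas Siglec15 had no count in any library, Oscar stayed at or below 0.649 CPM and Dcstamp reached 10.6 CPM in WT SSC replicate 3, with at most 1.76 CPM elsewhere.

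SSCs held more transcript of Csf1, Il34, Ccl2 and Il6 than OPCs. Il12a was called lower in SSCs only over the 3 genotypes together. Within 1013/1013 its log2 fold change was 0.50, with values from −1.17 to 1.30 over the alternatives. Tnfsf11 and Tnfrsf11b were not called in either direction. Averaged over the 3 genotypes, 5 of the 9 genes were called, 4 higher in SSCs, beside 15.3% of all genes, and 1 lower, beside 14.9% (edgeR quasi-likelihood test, adjusted p under 0.05 over all genes tested and at least 1.5-fold). By the same rule 30.2% of 20238 genes tested were called between the cell types. On the log2 scale the 9 genes had a median fold change of 1.91, beside −0.04 for all genes tested. The 4 genes called higher were also those in which all 8 SSC libraries lay above all 9 OPC libraries, as did 5.71% of genes (10.9% in either direction). Within WT, 2 of the 9 were called, Csf1 and Il34, beside 11.4% of genes. Within +/1013, Csf1, Ccl2 and Il6 were called, 3 of the 9, beside 12.5% of genes. Within 1013/1013, Csf1, Il34, Ccl2 and Il6 were called, 4 of the 9, beside 13.1% of genes. The count in 1013/1013 fell to 1 without 1013/1013 OPC replicate 2 or replicate 3, beside 11% and 8.42% of genes. Leaving out 1013/1013 SSC replicate 2 leaves that group 1 library. The log2 fold changes of Il6 and Ccl2 in 1013/1013 were then 2.73 and 2.82, beside 5.17 and 5.01 with all libraries. The SSC and OPC libraries did not overlap in 7 of the 9 genes in WT, in 7 in +/1013 and in 4 in 1013/1013, beside 37.9%, 35.1% and 40.2% of genes in either direction.

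**Figure D1:**
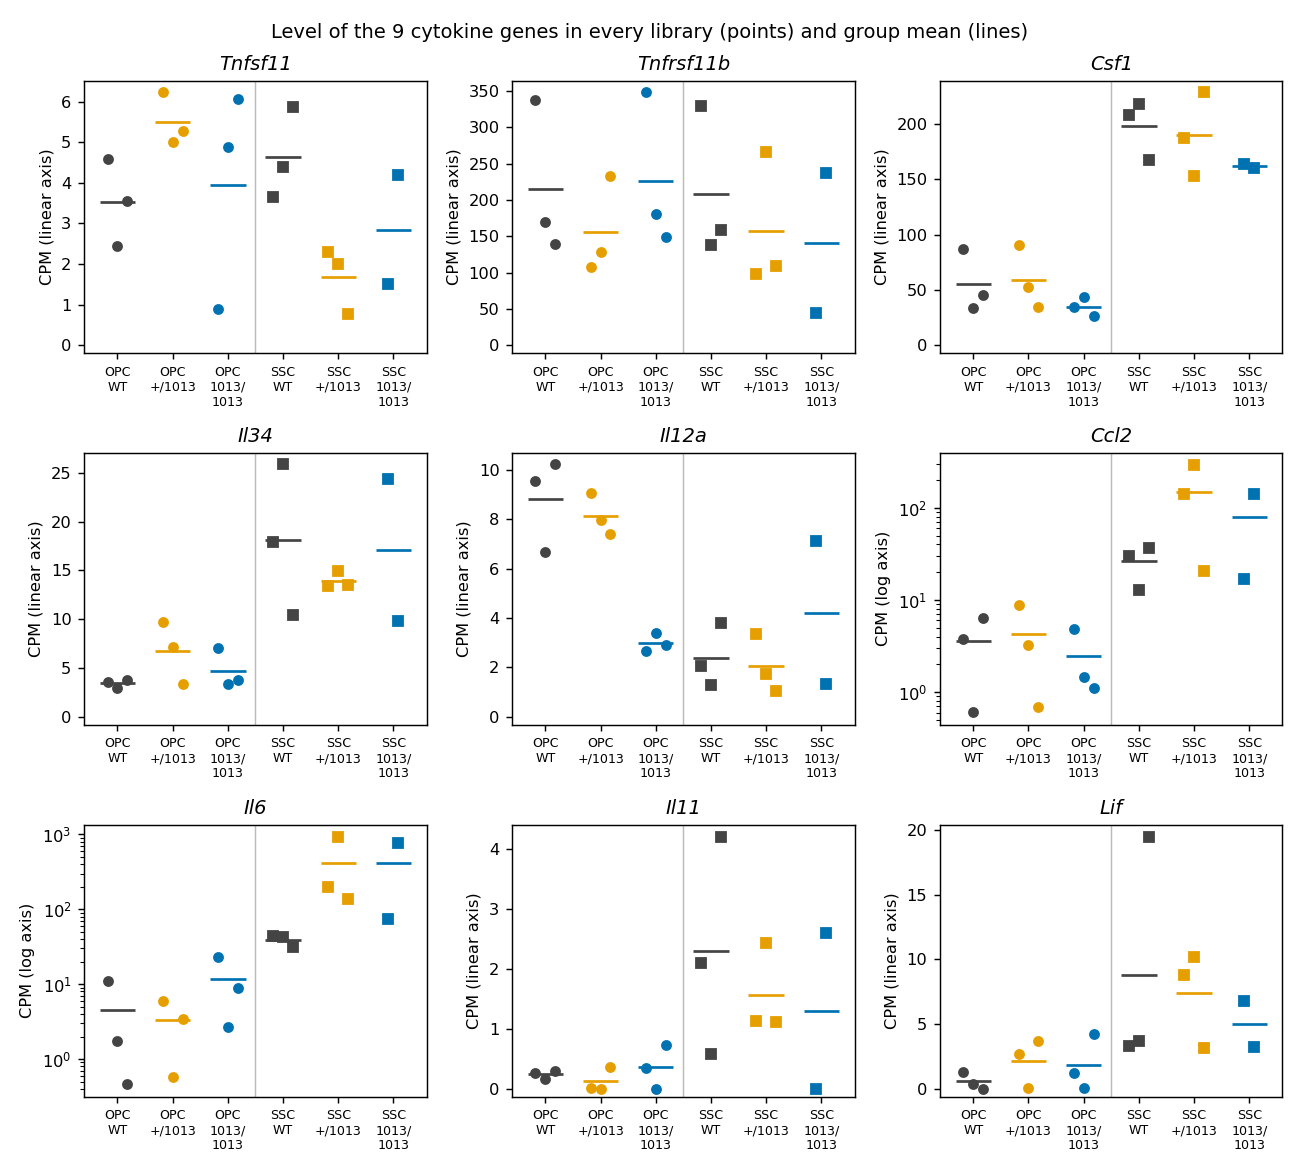
CPM of the 9 genes in each of 17 libraries (points; circles OPCs, squares SSCs; grey WT, orange +/1013, blue 1013/1013) with group means as lines; Ccl2 and Il6 have log axes, the others linear axes. For Csf1, Il34, Ccl2 and Il6 every square lies above every circle, with Il34 closest at 9.79 CPM in the lowest SSC and 9.76 CPM in the highest OPC library.

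**Figure D2:**
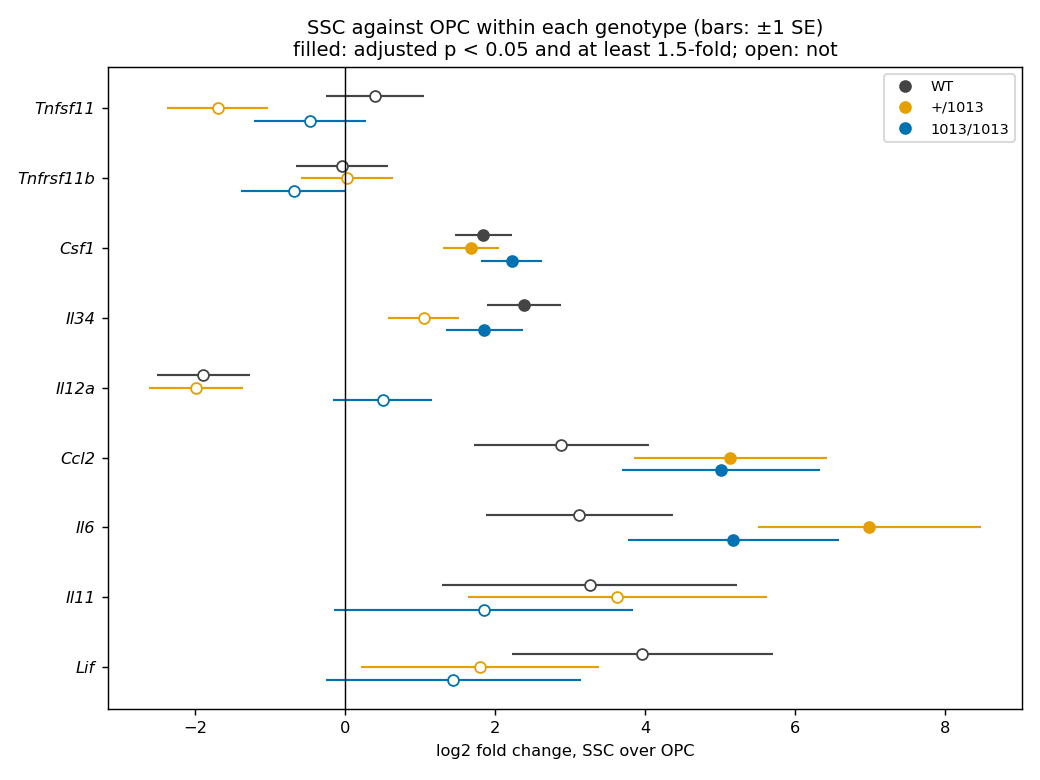
Log2 fold change of SSCs over OPCs within each genotype for the 9 genes, with bars of 1 standard error; filled points were called, open points were not. Csf1 is filled in all 3 genotypes, at 1.84, 1.68 and 2.22, whereas Tnfsf11, Tnfrsf11b, Il12a, Il11 and Lif are open in all 3.

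Compared per length of exon, Tnfrsf11b had the highest median in both cell types, at 60.3 CPM per kb in OPCs and 52.5 CPM per kb in SSCs. In OPCs it stood apart from the next gene, Csf1 (median 8.18 CPM per kb), in all 9 libraries with no overlap of their ranges. Il12a (4.34), Ccl2 (2.85), Tnfsf11 (2.18) and Il34 (1.93 CPM per kb) followed, and among these the order of neighbours held in 4 to 7 of 9 libraries, so their places are not resolved. Il6 (1.41), Lif (0.281) and Il11 (0.124 CPM per kb) came last by median, but Il34 exceeded Il6 in only 6 of 9 libraries, so that place is not resolved either. In SSCs the medians of Il6 (44.1), Csf1 (33.6) and Ccl2 (29.4 CPM per kb) lay near that of Tnfrsf11b, and the order among these 4 genes held in only 3 to 4 of 8 libraries for each neighbouring pair. Il34 (7.26 CPM per kb) exceeded Tnfsf11 (1.33) in 8 of 8 libraries with no overlap of ranges. Tnfsf11, Lif (1.196) and Il12a (1.11 CPM per kb) did not separate. Il11 (0.774 CPM per kb) had the lowest median, with Il12a above it in 6 of 8 libraries.

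Tnfsf11 (ENSMUSG00000022015, chromosome 14, 78277445 to 78308043, minus strand, mm10) was a low transcript in both cell types. It stood at 4.59, 2.44 and 3.56 CPM in WT OPCs, at 6.24, 5.01 and 5.27 CPM in +/1013 OPCs, and at 0.888, 4.88 and 6.06 CPM in 1013/1013 OPCs. In SSCs it stood at 3.65, 4.40 and 5.87 CPM in WT, at 2.30, 2.01 and 0.768 CPM in +/1013, and at 1.503 and 4.19 CPM in 1013/1013. The +/1013 libraries thus lay above all WT libraries among OPCs and below all WT libraries among SSCs, and the 1013/1013 libraries overlapped with WT in both. Neither +/1013 difference was called: the log2 fold change was 0.64 (standard error, SE, 0.65, edgeR adjusted p = 1) in OPCs and −1.48 (SE 0.69, edgeR adjusted p = 0.316) in SSCs. The difference of the +/1013 effect, SSCs minus OPCs, was −2.10 on the log2 scale (SE 0.94, edgeR adjusted p = 0.457). Between the cell types the mean log2 fold change over genotypes was −0.59 (SE 0.40, edgeR adjusted p = 0.284). The 250 bases before its RefSeq start (GRCm38.p6, the mm10 assembly, chr14:78308044-78308293, minus strand) are printed because Tnfsf11 was the gene whose +/1013 libraries moved apart from WT in opposite directions. None of the 5 motifs searched on both strands was in its 300-base window (250 bases before to 50 after the start): NF-kB GGGANTTTC, AP-1 TGANTCA, CRE TGACGTCA, Runx TGTGGTT and STAT TTCCNGGAA. Of 32851 windows of that length, 1.11%, 7.81%, 1.79%, 5.27% and 1.15% hold these motifs.
Tnfsf11: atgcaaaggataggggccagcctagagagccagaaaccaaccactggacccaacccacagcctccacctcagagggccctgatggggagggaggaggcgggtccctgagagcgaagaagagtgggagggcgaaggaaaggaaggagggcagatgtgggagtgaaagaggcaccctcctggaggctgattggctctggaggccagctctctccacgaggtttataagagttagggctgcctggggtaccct

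Tnfrsf11b (ENSMUSG00000063727, chromosome 15, 54250619 to 54278484) was the antagonist partner of Tnfsf11 and far more abundant than it in each library. Its levels were 337, 170 and 139 CPM in WT OPCs, 108, 128 and 232 CPM in +/1013 OPCs, and 349, 181 and 148 CPM in 1013/1013 OPCs. In SSCs they were 330, 138 and 158 CPM in WT, 97.8, 266 and 109 CPM in +/1013, and 44.0 and 237 CPM in 1013/1013. All 6 groups overlapped, and the cell types differed by a log2 fold change of −0.24 (SE 0.37, edgeR adjusted p = 0.700). Per length of exon, a library held 13.7 to 312 times as much Tnfrsf11b as Tnfsf11 in OPCs (median 31.0) and 21.4 to 113 times as much in SSCs (median 39.3). For OPCs the log2 ratio averaged 5.54 ± 0.50 for WT, 4.41 ± 0.68 for +/1013 and 5.81 ± 2.16 for 1013/1013 (SD of 3 libraries each). For SSCs it averaged 5.07 ± 0.95 for WT, 6.20 ± 0.98 for +/1013 (SD of 3 libraries each) and 5.01 ± 0.67 for 1013/1013 (SD of 2 libraries). The lowest ratio was that of a +/1013 OPC library and the highest that of 1013/1013 OPC replicate 1, where Tnfsf11 was at its lowest among OPCs.

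Csf1 (ENSMUSG00000014599, chromosome 3, 107741048 to 107760469) was the most evenly expressed of the genes in SSCs. It stood at 208, 219 and 167 CPM in WT SSCs, at 187, 153 and 229 CPM in +/1013 SSCs, and at 164 and 160 CPM in 1013/1013 SSCs. In OPCs it ran from 26.4 to 90.8 CPM with a median of 43.2 CPM. SSCs were higher by a log2 fold change of 1.91 (SE 0.22, edgeR adjusted p = 2.2e-05), and Csf1 was called in each genotype. The WT call was lost without the 3 libraries with the highest leukocyte sums (edgeR adjusted p = 0.055) and the 1013/1013 call with the replicate number as a block (edgeR adjusted p = 0.058). The 2 libraries of 1013/1013 SSCs lay below the 3 of WT (log2 fold change −0.28, SE 0.22, edgeR adjusted p = 0.508), where the median of all genes tested was −0.23.

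Il34 (ENSMUSG00000031750, chromosome 8, 110741829 to 110805924), the other ligand of CSF1R, also stood higher in SSCs, at 17.9, 25.9 and 10.4 CPM in WT, 13.4, 14.9 and 13.5 CPM in +/1013, and 24.4 and 9.79 CPM in 1013/1013. In OPCs it stood at 3.61, 2.97 and 3.79 CPM in WT, 9.76, 7.17 and 3.33 CPM in +/1013, and 7.03, 3.34 and 3.82 CPM in 1013/1013. The log2 fold change between cell types was 1.76 (SE 0.28, edgeR adjusted p = 3.4e-04). It was called in WT at 2.38 (adjusted p = 0.0065) and in 1013/1013 at 1.85 (adjusted p = 0.0312), and not in +/1013 at 1.05 (adjusted p = 0.167), all by edgeR. The 1013/1013 call was lost without 1013/1013 OPC replicate 2 (adjusted p = 0.0824), OPC replicate 3 (0.0912) or SSC replicate 1 (0.373), the last at a log2 fold change of 1.05. Of its 1959 exon bases, 75 lie opposite the antisense gene Gm15895 and 22 opposite Gm15894. The library kit does not mark strand, so reads on these bases cannot be assigned by strand. How the counting treated them is not given. Per length of exon, Csf1 exceeded Il34 by 1.83 to 8.89 times in OPCs (median 3.85) and by 2.49 to 6.27 times in SSCs (median 4.75), so the ratio of the CSF1R ligands overlapped between the cell types.

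The 250 bases before the Csf1 start (GRCm38.p6, chr3:107760470-107760719, minus strand) and before the Il6 start (GRCm38.p6, chr5:30012864-30013113, plus strand) are shown because these were the members called higher in SSCs that held an NF-kB match. Capitals mark every match to the 5 motifs. In Csf1 the capitals are the NF-kB letters on the opposite strand, from base −153 counted from the start. In Il6 the first run in capitals is an AP-1 match from base −249 and the second an NF-kB match from base −44. Of the 9 genes, 6 had at least 1 window in the RefSeq table, 8 windows in all, and Lif at base −228 and 1 of 2 Il11 windows at base −98 held an AP-1 match. No sequence is given for Tnfrsf11b, Il34 and Ccl2.
Csf1: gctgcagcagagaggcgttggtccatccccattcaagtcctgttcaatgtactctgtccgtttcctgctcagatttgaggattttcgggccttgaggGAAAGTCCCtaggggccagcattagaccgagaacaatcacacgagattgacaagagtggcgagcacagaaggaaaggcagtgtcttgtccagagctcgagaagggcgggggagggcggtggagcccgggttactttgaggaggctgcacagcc
Il6: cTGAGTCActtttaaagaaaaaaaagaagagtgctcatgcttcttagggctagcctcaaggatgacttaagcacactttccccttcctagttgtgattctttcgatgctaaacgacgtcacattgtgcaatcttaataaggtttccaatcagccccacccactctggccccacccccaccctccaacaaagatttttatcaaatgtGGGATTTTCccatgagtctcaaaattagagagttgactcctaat

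Il6 (ENSMUSG00000025746, chromosome 5, 30013114 to 30019981) showed the widest range of the 9 genes, from 0.461 to 922 CPM. It stood at 11.2, 1.75 and 0.461 CPM in WT OPCs, at 5.92, 0.583 and 3.41 CPM in +/1013 OPCs, and at 23.4, 2.70 and 8.90 CPM in 1013/1013 OPCs. In SSCs it stood at 43.5, 42.0 and 31.4 CPM in WT, at 199, 922 and 139 CPM in +/1013, and at 74.9 and 765 CPM in 1013/1013. Each SSC library was above each OPC library, and each of the 5 mutant SSC libraries was above the 3 of WT. The mutant and WT SSC libraries were also apart in other measures: genes with a count numbered 21449 to 22599 in WT and 15748 to 19227 in the mutants, and reads on no gene made up 3.68% to 4.15% and 1.504% to 2.69%. Summed SSC and reticular stroma markers were 2010 to 2771 CPM in WT and 3485 to 5576 CPM in the mutants, and summed osteoblast lineage markers 9715 to 13618 CPM and 3948 to 8124 CPM. The part of these differences in the level of Il6 was not tested. Between cell types the log2 fold change was 5.09 (SE 0.79, edgeR adjusted p = 2.6e-04), and it was 5.76 without WT OPC replicate 1 and 4.28 without 1013/1013 SSC replicate 2. Within WT it was 3.12 (edgeR adjusted p = 0.126), and 5.12 without WT OPC replicate 1 (edgeR adjusted p = 0.0389). Within +/1013 it was 6.99 (edgeR adjusted p = 0.0076), 7.68 without +/1013 OPC replicate 1 and 5.67 without +/1013 SSC replicate 2. Within 1013/1013 it was 5.17 (edgeR adjusted p = 0.0282). That call was lost without 1013/1013 OPC replicate 2 (log2 fold change 4.70), without OPC replicate 3 (5.02) and without SSC replicate 2 (2.73), and the value was 6.16 without OPC replicate 1 and 6.04 without SSC replicate 1.

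Against WT SSCs, the log2 fold change of Il6 was 3.41 in +/1013 (SE 0.99, edgeR adjusted p = 0.174) and 3.42 in 1013/1013 (SE 1.03, edgeR adjusted p = 0.174), and neither was called. DESeq2 called both, with adjusted p = 0.00164 and 0.00553. DESeq2 also called many more genes than edgeR in these comparisons, 1253 against 13 in +/1013 and 1581 against 0 in 1013/1013 SSCs. Without 1013/1013 SSC replicate 2 the 1013/1013 value was 0.92, and without +/1013 SSC replicate 2 the +/1013 value was 2.08 (edgeR). Groups in which all mutant SSC libraries lay above WT made up 15% of genes in +/1013 and 16.4% in 1013/1013. The difference of the +/1013 effect on Il6, SSCs minus OPCs, was 3.87 on the log2 scale (SE 1.68, edgeR adjusted p = 0.447), and that of the 1013/1013 effect was 2.05 (SE 1.72, adjusted p = 0.596).

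Ccl2 (ENSMUSG00000035385, chromosome 11, 82035571 to 82037453) was, like Il6, highest in +/1013 SSC replicate 2 and 1013/1013 SSC replicate 2. It stood at 30.3, 12.7 and 36.6 CPM in WT SSCs, at 140, 290 and 20.4 CPM in +/1013 SSCs, and at 16.995 and 143 CPM in 1013/1013 SSCs, so mutant and WT libraries overlapped. In OPCs it ran from 0.601 to 8.87 CPM with a median of 3.24 CPM. SSCs were higher by a log2 fold change of 4.34 (SE 0.73, edgeR adjusted p = 4.4e-04), or 3.62 without 1013/1013 SSC replicate 2. The value was 5.14 in +/1013 (adjusted p = 0.0184) and 5.01 in 1013/1013 (adjusted p = 0.0242), both called, and 2.88 in WT (adjusted p = 0.130), not called, all by edgeR. The +/1013 call was lost without +/1013 OPC replicate 2 (log2 fold change 4.97), without OPC replicate 3 (4.63) and without SSC replicate 2 (4.23), and the value was 6.25 without OPC replicate 1. The 1013/1013 call was lost without 1013/1013 OPC replicate 2 (4.74), without OPC replicate 3 (4.67) and without SSC replicate 2 (2.82), and the value was 5.97 without OPC replicate 1 and 5.85 without SSC replicate 1. In +/1013 SSCs against WT the log2 fold change was 2.48 (SE 1.04, edgeR adjusted p = 0.279).

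Early response genes known to rise during tissue dissociation were highest in the 2 SSC libraries with the most Il6, but did not follow Il6 throughout. The 18 such genes, Fos, Jun, Egr1, Atf3, Zfp36 and others, summed to 14817 to 18934 CPM in WT SSCs, to 20261, 27966 and 16224 CPM in +/1013 SSCs and to 15295 and 28808 CPM in 1013/1013 SSCs, with 17 of them detected in each SSC library. The 2 libraries with the highest sums, +/1013 replicate 2 and 1013/1013 replicate 2, were those with the highest Il6 and, with +/1013 replicate 1, the highest Ccl2. They also led the SSC libraries in Nfkbia (1817 and 1671 CPM), an inhibitor that NF-kB itself induces, in Ccl7 (362 and 257 CPM) and in Ptgs2 (267 and 207 CPM), the inducible enzyme of prostaglandin synthesis. In +/1013 replicate 3 and 1013/1013 replicate 1 the sums lay at 16224 and 15295 CPM, within the WT range. There Il6 was 139 and 74.9 CPM, still above the 31.4 to 43.5 CPM of WT. Among WT SSCs, replicate 3 had the highest sum, 18934 CPM, and the lowest Il6, 31.4 CPM. OPC libraries reached sums of 7364 to 26200 CPM with Il6 at no more than 23.4 CPM. Of these genes 6 were called higher in SSCs than in OPCs and 1 lower, among 17 tested: Hspb1 (log2 fold change 2.39), Nr4a1 (1.49) and Ier3 (1.21) rose most and Fosb fell by 1.27. Their part in the levels of Il6 and Ccl2 was not tested. In the libraries with the highest leukocyte sums Il6 was at 31.4 CPM in SSCs, the lowest SSC value, and at 0.461 and 2.70 CPM in OPCs. The median of OPCs was 3.41 CPM, and 0.461 CPM was their lowest value.

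**Figure D3:**
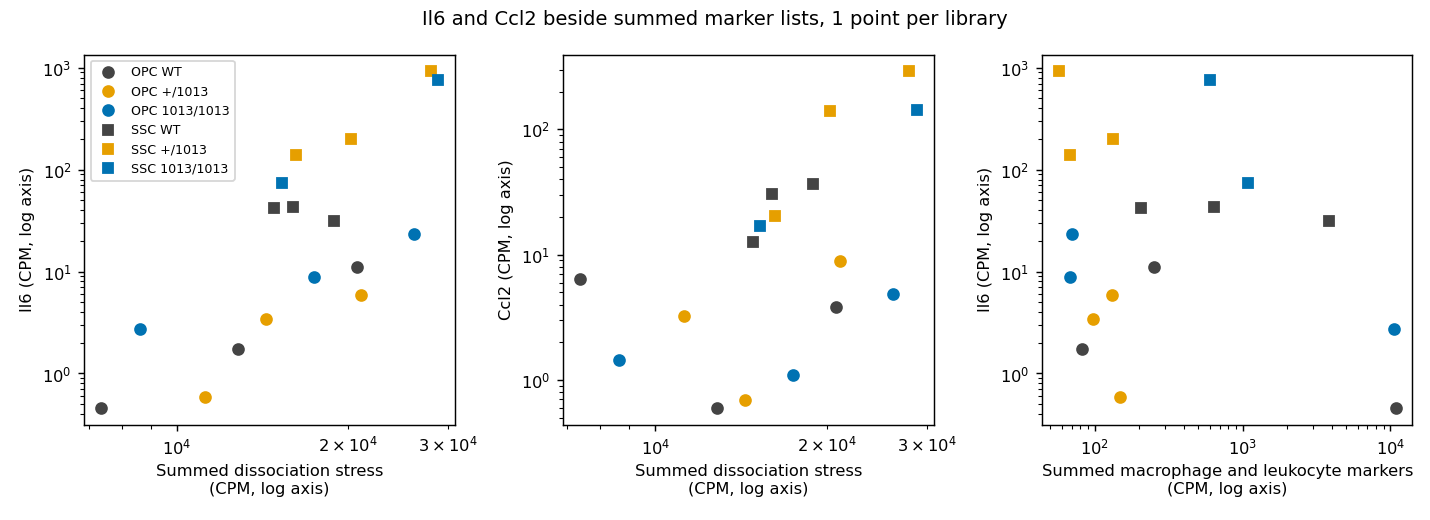
Il6 (left and right) and Ccl2 (middle) against the summed dissociation genes (left, middle) or the summed leukocyte markers (right), in CPM on log axes, 1 point per library (circles OPCs, squares SSCs; grey WT, orange +/1013, blue 1013/1013). The 2 SSC libraries with sums of 27966 and 28808 CPM have the highest Il6, 922 and 765 CPM, while OPC libraries with sums up to 26200 CPM stay at or below 23.4 CPM.

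Il12a (ENSMUSG00000027776, chromosome 3, 68690644 to 68698547) was the gene called lower in SSCs. It stood at 9.52, 6.68 and 10.2 CPM in WT OPCs, at 9.05, 7.94 and 7.38 CPM in +/1013 OPCs, and at 2.65, 3.40 and 2.90 CPM in 1013/1013 OPCs. In SSCs it stood at 2.04, 1.29 and 3.78 CPM in WT, at 3.34, 1.74 and 1.05 CPM in +/1013, and at 7.10 and 1.32 CPM in 1013/1013. The 3 libraries of 1013/1013 OPCs therefore lay below the other 6 OPC libraries and within the range of SSCs. The log2 fold change between cell types was −1.13 over genotypes (SE 0.37, edgeR adjusted p = 0.0302). By edgeR it was −1.89 in WT (adjusted p = 0.0651) and −1.99 in +/1013 (adjusted p = 0.0518, or 0.0467 at −2.54 without +/1013 SSC replicate 1). In 1013/1013 it was 0.50 (edgeR adjusted p = 0.648), and the cell types overlapped. With SSC libraries at 7.10 and 1.32 CPM, this value took both signs over the alternatives, from −1.17 to 1.30. The call over genotypes was lost, with adjusted p from 0.0503 to 0.0665 by edgeR, without WT OPC replicate 1 or 3, +/1013 OPC replicate 1, 1013/1013 OPC replicate 2, WT SSC replicate 1 or 2, +/1013 SSC replicate 2 or 3, or 1013/1013 SSC replicate 2. Among OPCs, 1013/1013 differed from +/1013 by a log2 fold change of −1.44 (SE 0.31, edgeR adjusted p = 0.999) and from WT by −1.56 (SE 0.31, edgeR adjusted p = 1.00). DESeq2 called both, with adjusted p = 0.00148 and 4.1e-04. The difference of the 1013/1013 effect, SSCs minus OPCs, was 2.39 on the log2 scale (SE 0.90, edgeR adjusted p = 0.259). Over the alternatives this difference ran from 0.72 to 3.17. The highest value came without 1013/1013 SSC replicate 2, which leaves that group 1 library, at 7.10 CPM. Of the chains that pair with p35, Il12b was at 0 in all libraries except WT SSC replicates 1 and 3 (0.155 and 0.0791 CPM), and Ebi3, its partner in IL-35, reached 9.78 to 11.7 CPM only in the 3 libraries with the highest leukocyte sums, with at most 1.63 CPM elsewhere. Without those 3 libraries the log2 fold change of Il12a between cell types was −1.22 (edgeR adjusted p = 0.0460).

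Il11 (ENSMUSG00000004371, chromosome 7, 4772373 to 4782859) and Lif (ENSMUSG00000034394, chromosome 11, 4257557 to 4272514) were the lowest of the genes in OPCs. Il11 was at 0 to 0.731 CPM in OPCs, with 0 counts in +/1013 replicate 2 and 1013/1013 replicate 2. In SSCs it stood at 2.09, 0.584 and 4.19 CPM in WT, at 1.13, 2.43 and 1.12 CPM in +/1013, and at 0 and 2.59 CPM in 1013/1013. Its log2 fold change between cell types was 2.91 (SE 1.14, edgeR adjusted p = 0.0631). It was called without +/1013 OPC replicate 3 (4.12) or 1013/1013 SSC replicate 1 (3.24) and came to −0.20 without 1013/1013 SSC replicate 2, which leaves that group with the library at 0. Lif stood at 1.29, 0.390 and 0 CPM in WT OPCs and ran up to 4.22 CPM in the other OPCs. In SSCs it ran from 3.16 to 19.4 CPM, the latter in WT replicate 3, with 10.2 CPM as the next value. Its log2 fold change was 2.40 (SE 0.96, edgeR adjusted p = 0.0679), and it was called without WT OPC replicate 1 (2.90) or 1013/1013 OPC replicate 3 (2.92).

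Within a cell type, 0 of the 9 genes were called in any of the 6 genotype comparisons by edgeR. At an unadjusted p under 0.05 there were 2 comparisons with Il12a, 2 with Il6 and 1 with Ccl2. Over all genes the calls were 0% in +/1013 OPCs against WT, 0.00617% in 1013/1013 OPCs against WT and 0% in 1013/1013 against +/1013 OPCs. In SSCs they were 0.0736% for +/1013 against WT, 0% for 1013/1013 against WT and 0% for 1013/1013 against +/1013. The counts of all genes at an unadjusted p under 0.05 were 331, 548 and 513 of 16207 in the OPC comparisons and 3061, 3224 and 977 of 17659 in the SSC comparisons. DESeq2 called 58, 42 and 59 genes in OPCs and 1253, 1581 and 157 in SSCs. Groups did not overlap in 1 of the 9 genes in each OPC comparison, beside 5.28%, 7.61% and 7.34% of genes. In SSCs they did not overlap in 2 of the 9 for +/1013 against WT, in 2 for 1013/1013 against WT and in 0 between the mutants, beside 31.2%, 40.7% and 15.9% of genes. For the difference of the genotype effects between cell types 0 of the 9 genes were called by edgeR, beside 0.084% of genes for +/1013 and 0.153% for 1013/1013. Tnfsf11 and Il6 had an unadjusted p under 0.05 for +/1013, and Il12a for 1013/1013.

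**Figure D4:**
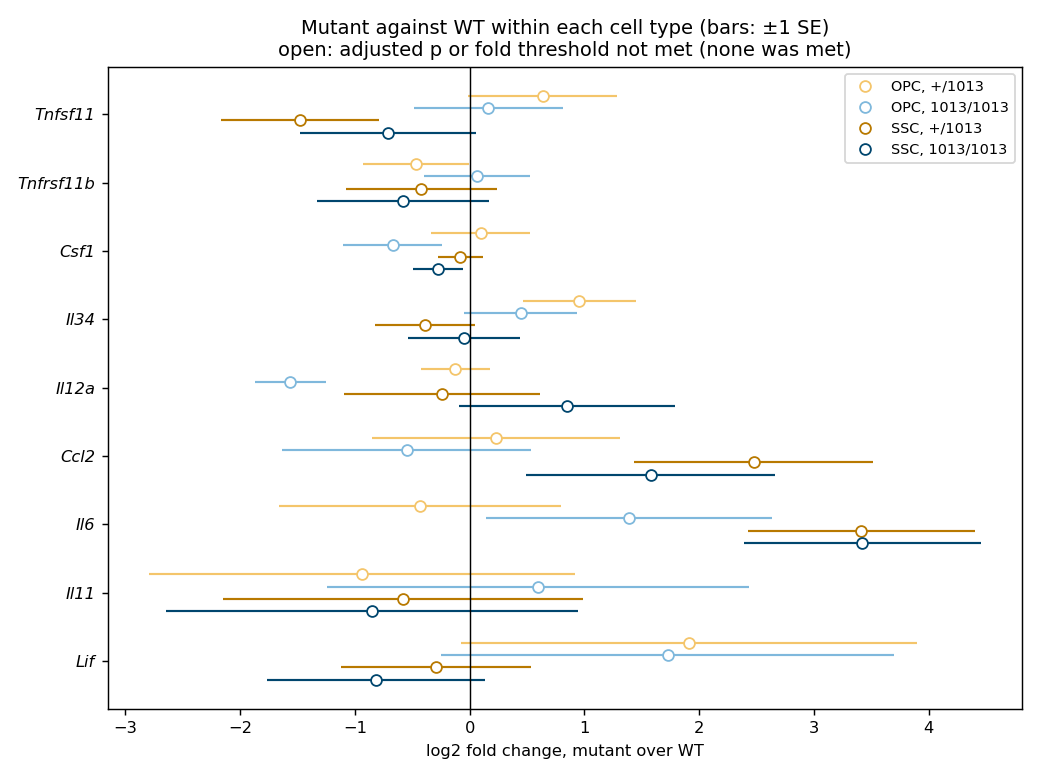
Log2 fold change of +/1013 or 1013/1013 over WT within OPCs (light) and SSCs (dark) for the 9 genes, with bars of 1 standard error. All points are open because none was called; the largest are Il6 in SSCs, at 3.41 and 3.42, and the narrowest errors among the shifted points are those of Il12a in 1013/1013 OPCs, at −1.56 with a SE of 0.31.

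The receptors of these cytokines differed between the cell types too. Of 15 receptors and partner chains, 13 were tested, 4 were called higher and 3 lower in SSCs, where 15.3% of all genes were called higher and 14.9% lower. Lifr, the LIF receptor chain, ran from 268 to 433 CPM in OPCs and from 17.5 to 74.1 CPM in SSCs (log2 fold change −2.70, SE 0.24). The IL-6 and IL-11 receptor chains went the other way: Il6ra from 0.878 to 9.26 CPM in OPCs and from 8.28 to 22.2 CPM in SSCs (2.17, SE 0.31), and Il11ra1 from 37.4 to 126 CPM in OPCs and from 129 to 510 CPM in SSCs (2.41, SE 0.26). Il6st, the shared gp130 chain, which was named after its values were seen, was 94.6 to 252 CPM in OPCs and 292 to 451 CPM in SSCs (1.23, SE 0.20). Ptprz1, a receptor that IL-34 also binds, had a median of 140 CPM in OPCs and 6.73 CPM in SSCs (log2 fold change −4.68, SE 0.61), and Lgr4, a further receptor for RANK-L, had medians of 61.9 and 19.2 CPM (−1.51, SE 0.23). Ackr1, a scavenging receptor of chemokines such as MCP-1, had medians of 0.217 and 3.84 CPM (3.94, SE 1.13). The adjusted p of these differences was below the threshold by edgeR for each gene.

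**Figure D5:**
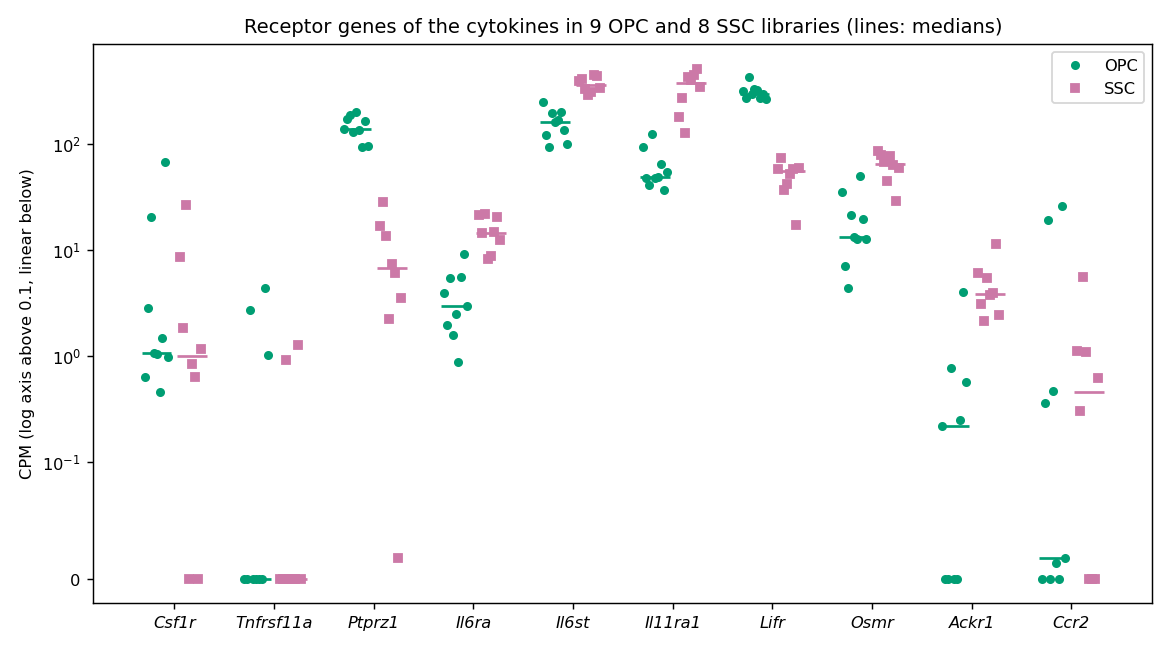
CPM of 10 receptor genes in each OPC (green circles) and SSC library (pink squares), on an axis that is logarithmic above 0.1 CPM and linear below, with medians as lines. Lifr and Ptprz1 are higher in every OPC than in any SSC library, and Il6st and Il11ra1 are higher in every SSC than in any OPC library; Tnfrsf11a is at 0 in 12 of 17 libraries.

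The receptors found on osteoclast precursors were low. Tnfrsf11a, which encodes RANK, had no count in 12 of 17 libraries and at most 4.41 CPM, in 1013/1013 OPC replicate 2. Csf1r reached 68.7 CPM in that library, 26.5 CPM in WT SSC replicate 3 and 20.6 CPM in WT OPC replicate 3, the libraries with the highest leukocyte marker sums, against 0 to 8.68 CPM in the other 14. The part of these cells in the levels of the 9 genes was not tested beyond leaving the 3 libraries out, which kept the same 5 calls between the cell types over genotypes, with log2 fold changes of 1.97 for Csf1, 1.81 for Il34, 4.38 for Ccl2, 4.80 for Il6 and −1.22 for Il12a. Within genotypes the same exclusion lost Csf1 in WT and Il34, Ccl2 and Il6 in 1013/1013, which left 1 gene called in each. Of all genes, the exclusion left 29% called over genotypes, 5.34% in WT and 11.5% in 1013/1013. With all libraries these shares were 30.2%, 11.4% and 13.1%.

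Of 17 genes of the gp130 family and its signalling, 15 were tested, 4 were called higher in SSCs and 2 lower, beside 15.3% and 14.9% of all genes. Osmr, the oncostatin M receptor chain, was higher by 1.65 on the log2 scale (SE 0.40), the kinase Jak1 by 0.85 (SE 0.13) and the feedback inhibitor Socs3 by 0.60 (SE 0.21). The ligand Ctf1 was lower (log2 fold change −2.25, SE 0.63). Of 17 regulators of Tnfsf11 in stroma, 8 were called higher in SSCs and 4 lower, beside 15.3% and 14.9% of all genes, and Tnfsf11 itself was not called. Among the lower ones, Vdr, the vitamin D receptor, had a median of 238 CPM in OPCs and 3.46 CPM in SSCs (log2 fold change −6.16, SE 0.63). Pth1r, the parathyroid hormone receptor, had medians of 1267 and 135 CPM (−3.33, SE 0.30). Runx2 was lower by a log2 fold change of −2.54 (SE 0.20). Higher in SSCs were Ptger2, a prostaglandin E2 receptor (4.09, SE 1.27), Ptgs2 (3.71, SE 0.81) and Il1r1, the interleukin-1 receptor (1.84, SE 0.31).

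Of 39 other stromal factors that act on osteoclasts, 37 were tested, 13 were called higher in SSCs and 2 lower, beside 15.3% and 14.9% of all genes, with a median log2 fold change of 1.63 against −0.04 for all genes. The monocyte chemokines Ccl8 (8.02, SE 1.01) and Ccl7 (5.10, SE 0.58) and the neutrophil chemokine Cxcl2 (4.36, SE 0.88) rose most, and Wnt4 (−2.98, SE 0.41) and Tgfb1 (−2.14, SE 0.20) fell. Among 15 osteoclast markers, 14 were tested, 0 were called higher and 5 lower in SSCs, beside 15.3% and 14.9% of all genes, led by Calcr (−6.03, SE 1.27), Mmp9 (−3.44, SE 0.92) and Src (−1.22, SE 0.43). Calcr stood at 5.88 to 70.8 CPM in OPCs and 0 to 1.03 CPM in SSCs. In the 6 genotype comparisons within a cell type and the 2 differences of effects, 0 genes of any of these lists were called by edgeR.

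Across the 17 libraries, the genes whose log2(CPM + 0.5) ran most like each of these genes were sought among 12978 genes averaging 1 CPM or more, as a description, since the libraries share cell type, depth and sort. Csf1 ran with Axl and Igfbp5 (Pearson r = 0.98 for both), Il34 with Rtn1 (r = 0.96) and Clec1a (0.92), Il6 with Vim (0.97) and Tac1 (0.96), and Ccl2 with its neighbour chemokine Ccl7 (0.95) and Tnfaip6 (0.94). Tnfsf11 ran with Mmp13 (r = 0.87) and Spock1 (0.80), Tnfrsf11b with Cpeb4 (0.87) and Chad (0.84), and Il12a with Ldhb (0.87) and Tmem123 (0.85). Lif ran with Gm12183 (0.85) and 4930503L19Rik (0.84), and Il11 was below the mean level searched.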

How the data were processed

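The authors sorted the cells, made cDNA with SMART-Seq v4 (a kit that does not mark strand), built Nextera XT libraries, removed short reads, aligned to mm10 with STAR and counted with HTSeq; versions, annotation and counting settings are not given in the sources used here. The deposited values are whole-number counts per gene and library, with no normalization. Identifiers matched GENCODE M21 for 55154 of 55335 genes, by identifier without version, and for all 9 genes described. Reads on no gene (1.15% to 4.15% of the total) or counted as ambiguous (1.87% to 3.93%) stayed out of library sizes.

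From the counts, edgeR 4.0.16 (R 4.3.3) gave quasi-likelihood tests over all genes passing filterByExpr with TMM scaling, Benjamini-Hochberg adjusted over those genes; a call needs an adjusted p under 0.05 and 1.5-fold. SSCs were compared with OPCs over 17 libraries with 6 groups, genotypes within 9 OPC or 8 SSC libraries. The standard error is the log2 fold change over the root of F. DESeq2 1.42.0 and other settings were alternatives. The code was tested on simulated data. Other genes named from a list are up to 3 in each direction, those called with the largest change and averaging 1 CPM or more. The 9 genes, the lists and the rules were chosen with earlier results of these data known, and the study shows several of these genes itself. Replicates were separate pools by their labels, and nothing says that replicate numbers were shared between groups as animals or days. The 3 same-numbered WT pairs of OPCs and SSCs deviated together (r of 0.15 to 0.43). So did WT OPC replicate 1 with WT SSC replicate 2 (0.27) and WT OPC replicate 2 with WT SSC replicate 1 (0.15). Deviations from a mean of 3 libraries are tied to each other, so these pairs are not independent. Promoter windows came from RefSeq on GRCm38.p6. The values of 1 gene of the gp130 list are not reported here.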

Additional observations from a re-analysis of the deposited data

Results flagged for a closer look

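Tnfsf11 stood out because all 3 +/1013 OPC libraries lay above the mean of WT OPCs and all 3 +/1013 SSC libraries below that of WT SSCs. Their means were 5.51 ± 0.65 CPM (SD, n = 3) against 3.53 ± 1.08 CPM (SD, n = 3) in WT OPCs, and 1.69 ± 0.81 CPM (SD, n = 3) against 4.64 ± 1.13 CPM (SD, n = 3) in WT SSCs. The difference of the effects, −2.10 on the log2 scale, was not called (edgeR adjusted p = 0.457), and its adjusted p ran from 0.279 to 0.845 over the alternatives. The share of all genes that meet the rule was not computed. In either direction, +/1013 and WT libraries did not overlap in 5.28% of genes in OPCs and in 31.2% in SSCs. No group held enough libraries for a test of single outlying values.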

How the results depend on the processing

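Recomputed log2 fold changes were followed for a set of comparisons of the 9 genes. The set held those over the 3 genotypes, those called, those whose groups did not overlap and a few others. Of the recomputed values, 681 kept direction and side of the threshold, 31 newly passed it, 36 no longer passed it and 3 changed direction. These 3 each came from leaving out 1 library and touched genes that were not called: Tnfrsf11b between cell types (−0.78 to 0.014), Il11 between cell types (−0.20 to 4.12) and the difference of the 1013/1013 effect on Il6 (−0.41 to 3.02). Of the fold changes of the 9 genes outside this set, none of them called with all libraries by edgeR, 44 of 69 took both signs over the alternatives. Among these 44 was Il12a between cell types in 1013/1013 (−1.17 to 1.30). The number of genes called between cell types was 2, 3 and 4 of the 9 in WT, +/1013 and 1013/1013. Of all genes, 11.4%, 12.5% and 13.1% were called. With DESeq2 the number became 6 in WT and 5 in +/1013 (18.5% and 20.7% of all genes). It became 5 in WT with the newer edgeR dispersion fit (16.3%) and 5 in +/1013 with at least 10 counts in every library (25.7%). With only the 2 groups compared it was 1 in 1013/1013 (3.14%). DESeq2 called 1 gene in OPCs for 1013/1013 against WT and 1 against +/1013 (Il12a), and in SSCs 1 for +/1013 and 1 for 1013/1013 against WT (Il6). Without the 3 libraries with the highest leukocyte markers, an exclusion chosen after seeing the data, 1 gene was called in WT (Il34) and 1 in 1013/1013 (Csf1). Of all genes, 5.34% and 11.5% were then called. Leaving out 1 library gave 1 to 4 calls between cell types in 1013/1013, 0 to 1 in SSCs for 1013/1013 against WT and against +/1013 (Il11, against the library at 0), and 0 to 1 for the difference of the 1013/1013 effect (Il12a). With the replicate number as a block, 0 genes were called between cell types in 1013/1013, beside 3.38% of all genes. Same-numbered libraries correlated from −0.42 to 0.44 in their deviations, with 3 of 8 pairs between cell types over 0.1. All 3 same-numbered WT pairs of OPCs and SSCs were over 0.1 (0.15 to 0.43), and none of the other 5 was. In WT the block kept both calls (Csf1 and Il34), beside 5.26% of all genes. Between cell types, 3 of 16 pairs of unlike number were also over 0.1. The deviations were taken from the mean of each group of 2 or 3 libraries, so the pairs are not independent of each other. Whether numbers pair the samples is therefore not settled. The block left 4 calls over genotypes (Il12a was lost) and 2 in +/1013 (Il6 was lost), beside 20% and 6.15% of all genes. Of the group mean levels, 8 moved by more than 1 SD, all under plain CPM. Over all genes, DESeq2 called 58, 42 and 59 in the OPC comparisons against 0, 1 and 0 by edgeR, and 1253, 1581 and 157 in the SSC comparisons against 13, 0 and 0. Groups held 2 or 3 pools, and the OPC counts ran from 0 to 40 for Il11 and from 0 to 258 for Lif. Genes of the other lists were not recomputed under the alternatives.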
